A study of Mus musculus with 6 samples.

Results

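The 10 genes described here encode enzymes that build, desaturate and elongate long-chain fatty acids: Acaca, Fasn, Scd1, Scd2, Fads1, Fads2, Fads3, Elovl1, Elovl5 and Elovl6. They were taken by name from the read-count table of bone marrow-derived macrophages (BMDMs), which held 24562 gene symbols, and each gene was represented by its RefSeq transcript with the highest total count. Of these symbols, 11470 had enough reads to be tested, and all 10 enzymes were among them. Fatty acids with no double bond or a single double bond are made by Acaca, Fasn, Elovl6, Scd1 and Scd2, which formed the group of saturated and monounsaturated steps. Fads1, Fads2 and Elovl5 convert the essential fatty acids of the diet and formed the group of polyunsaturated steps. Fads3 and Elovl1 act on other acyl and sphingoid chains and were kept apart.

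RNA-seq was performed on naive, unstimulated BMDMs of 2 genotypes, with 3 libraries each. The series design names female mice, while the study's methods summary gives both sexes for in vitro work, and the samples themselves carry no sex label. The controls carried the floxed Acly allele (Acly fl/fl) without Cre. AclyM-KO cells carried the same floxed allele together with Lyz2-Cre, a Cre recombinase expressed from the lysozyme 2 locus in myeloid cells, and both genotypes were on the C57Bl/6J background. Acly encodes ATP citrate lyase, which cleaves cytosolic citrate to acetyl-CoA, and the comparison asks how macrophage transcripts differ when this enzyme is deleted. As the controls had no Cre, loss of Acly and presence of the Cre insertion cannot be told apart. The cultures of the study are described as technical replicates of pooled marrow, so the p-values measure the spread between libraries and may not include the spread between mice.

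Cytosolic fatty-acid synthesis starts when acetyl-CoA carboxylase (Acaca) makes malonyl-CoA, from which fatty acid synthase (Fasn) assembles palmitate. Elovl6 elongates palmitate towards stearate, and the stearoyl-CoA desaturases place the first double bond to give palmitoleate and oleate. Fads2 and Fads1 are front-end desaturases that act before and after the elongation by Elovl5, on the way from linoleic and alpha-linolenic acid to arachidonic and eicosapentaenoic acid, which macrophages use as eicosanoid precursors. Many genes of these enzymes are known targets of the sterol regulatory element-binding proteins (SREBPs) and of liver X receptors.

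The total count was 19327459 to 23582992 in 5 libraries and 44507233 in AclyM-KO replicate 2. Acly, the targeted gene, was at 220.4, 233.0 and 235.8 counts per 1000000 counts (CPM, on TMM-scaled library sizes) in control and at 93.3, 98.9 and 98.3 CPM in AclyM-KO libraries, lower in every AclyM-KO library as labelled. The summed level of 6 macrophage markers (Adgre1, Cd68, Csf1r, Itgam, Fcgr1 and Mertk) was 8422 to 8626 CPM in control and 6832 to 8085 CPM in AclyM-KO BMDMs. Csf1r and Mertk fell by 0.48 and 0.67 on the log2 scale (edgeR adjusted p = 0.0391 and 0.00202), beside 5.65% of all tested genes. Csf1r, the most abundant, had means of 3237 CPM in control and 2325 CPM in AclyM-KO. Adgre1, Cd68, Itgam and Fcgr1 were at log2 fold changes of 0.07, 0.01, 0.001 and -0.18, none called as changed. Of 5 adipocyte markers, 4 had no read in any library and Adipoq had a single one, and 5 fibroblast and stroma markers had at most 4 reads in a library. Lymphocyte markers reached at most 3 reads in a library, dendritic cell markers summed to 0.632 to 1.55 CPM in control against 0.696 to 1.57 CPM in AclyM-KO, and neutrophil markers to 4.55 to 7.22 CPM against 4.87 to 6.89 CPM. All 10 cell division markers rose in AclyM-KO BMDMs, beside 6.7% of all tested genes, from a summed 427.9 to 501.1 CPM to 616.9 to 884.5 CPM, with the highest sum in AclyM-KO replicate 2. The part of cell division and of the lower Csf1r and Mertk in the results on the 10 enzymes was not tested.

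Promoter sequences are shown for the 3 enzymes with the largest changes among those matched in the table of RefSeq promoters used here (GRCm38.p6), Fads2, Elovl6 and Fasn, and for Elovl5, the enzyme with the smallest change. Promoter windows were matched for 7 of the 10 genes, and those of Fads1, Scd1 and Scd2 were not analysed here. Each window runs 5′ to 3′ on the strand of the gene, from 250 bases before the transcript start of its RefSeq entry to 50 bases from it onwards, and capitals mark letters that match a searched motif on either strand.
Fads2 promoter, GRCm38.p6 chr19:10101454-10101753, minus strand: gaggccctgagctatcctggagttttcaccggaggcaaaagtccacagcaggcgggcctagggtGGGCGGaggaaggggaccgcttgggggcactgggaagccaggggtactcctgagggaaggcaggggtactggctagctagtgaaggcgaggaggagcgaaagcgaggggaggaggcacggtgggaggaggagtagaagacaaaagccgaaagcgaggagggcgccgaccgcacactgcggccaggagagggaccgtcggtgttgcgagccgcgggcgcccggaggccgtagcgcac
Elovl6 promoter, GRCm38.p6 chr3:129532136-129532435, plus strand: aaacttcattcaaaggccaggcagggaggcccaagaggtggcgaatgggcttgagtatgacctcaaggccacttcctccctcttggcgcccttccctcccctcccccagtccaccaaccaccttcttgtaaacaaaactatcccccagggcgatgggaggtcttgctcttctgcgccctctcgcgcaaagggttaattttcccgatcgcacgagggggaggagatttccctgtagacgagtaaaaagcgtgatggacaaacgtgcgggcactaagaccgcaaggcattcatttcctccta
Fasn promoter, GRCm38.p6 chr11:120824498-120824797, minus strand: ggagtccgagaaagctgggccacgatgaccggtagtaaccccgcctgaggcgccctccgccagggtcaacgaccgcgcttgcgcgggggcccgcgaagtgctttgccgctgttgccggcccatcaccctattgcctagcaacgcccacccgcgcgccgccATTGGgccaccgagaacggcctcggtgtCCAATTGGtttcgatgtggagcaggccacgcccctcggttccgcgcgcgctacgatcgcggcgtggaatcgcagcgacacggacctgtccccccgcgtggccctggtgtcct
Elovl5 promoter, GRCm38.p6 chr9:77917115-77917414, plus strand: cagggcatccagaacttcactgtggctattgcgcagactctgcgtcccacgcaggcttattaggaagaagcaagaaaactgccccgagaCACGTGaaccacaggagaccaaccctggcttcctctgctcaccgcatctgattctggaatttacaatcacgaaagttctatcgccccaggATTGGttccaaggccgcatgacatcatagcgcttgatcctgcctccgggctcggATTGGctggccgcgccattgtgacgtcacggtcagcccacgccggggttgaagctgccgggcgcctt
The motifs searched were a sterol regulatory element (TCACNCCAC), the palindromic E-box (CACGTG), the CCAAT box (CCAAT) and the GC box (GGGCGG), which occurred in 1.24%, 7.15%, 37.4% and 35.7% of 32851 promoter windows of the same length. The Fasn window held 3 CCAAT boxes, starting at -90, -62 and -59 from that start, and the last 2 overlap each other on opposite strands. This Fasn start is that of the matched GENCODE transcript and lies 619 bases inside the outermost start of the RefSeq gene span given with its values, whereas the Fads2, Elovl6 and Elovl5 starts are those of their gene spans. The Fads2 start lies 243 bases inside that of its GENCODE transcript, which is the start used here for distances between genes. The Fads2 window held 1 GC box at -186, which is downstream of that GENCODE start. The Elovl6 window held none of the searched letters. The Elovl5 window held an E-box at -161 and 2 CCAAT boxes, as many matches as the Fasn window and more than those of Fads2 and Elovl6. A link between these matches and the changes was not tested. None of the 8 windows of the 7 genes held the sterol regulatory element as spelled here, which says only that these letters were not in these windows.

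All 10 enzymes rose in AclyM-KO BMDMs (edgeR quasi-likelihood test, adjusted p of 0.05 or less over all genes tested), whereas 6.7% of all tested genes rose and 5.65% fell. In counts, 768 of the 1416 changed genes rose, and this split was 919 of 1427 when libraries were scaled by their total counts alone. The lowest AclyM-KO library was above the highest control library for each of the 10 enzymes, which was the case for 16.3% of tested genes. The median log2 fold change was 1.08 over the 10 enzymes and 0.00026 over all tested genes. By step, the median was 1.73 (range 0.72 to 2.38) for the 5 saturated and monounsaturated steps, 0.32 (0.29 to 2.83) for the 3 polyunsaturated steps and 0.55 for the pair acting on other chains. The ranges of the first pair of groups overlapped, since Fads2, a polyunsaturated step, had the largest change of all 10. In bulk RNA, more cells expressing a gene and more RNA per cell cannot be told apart. In fits that each left out 1 library, 8 to 10 of the 10 enzymes remained past the threshold, and those that did not are named beside their values.

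**Figure D1:**
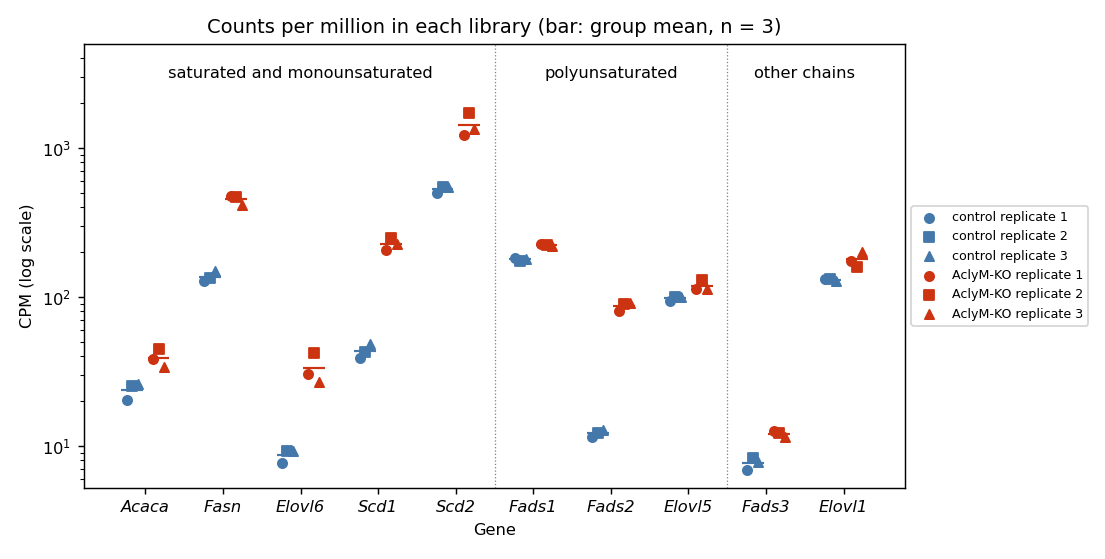
Level of the 10 enzymes in CPM (y axis, log scale) in each of the 3 control (blue) and 3 AclyM-KO libraries (red), by gene on the x axis and grouped by step; symbols stand for replicate numbers and bars for group means. For every gene the red points lie above the blue points, with the widest gap at Fads2 (12.2 against 86.9 CPM) and the narrowest at Elovl5 (98.0 against 119.3 CPM).

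Acaca (NM_133360, chr11:84129635-84401651, plus strand, given like all positions of these genes as the span of the RefSeq gene on mm10), whose product carboxylates acetyl-CoA to malonyl-CoA, was at 20.5, 25.1 and 25.9 CPM in control and at 38.6, 44.8 and 34.03 CPM in AclyM-KO libraries. The groups did not overlap, and AclyM-KO replicate 2 was the highest. The means were 23.8 ± 2.94 and 39.1 ± 5.44 CPM (SD, n = 3), a log2 fold change of 0.72 with a standard error (SE) of 0.12 and an edgeR adjusted p of 0.00363. Fasn (NM_007988, chr11:120805958-120825166, minus strand), which encodes the multi-domain synthase, was at 127.3, 133.1 and 150.4 CPM in control and at 476.7, 469.5 and 414.7 CPM in AclyM-KO libraries. All AclyM-KO libraries were far above the controls, and their spread was small beside the gap. Fasn rose 3.31-fold (log2 1.73, SE 0.08, edgeR adjusted p = 2.51e-07).

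Elovl6 (NM_130450, chr3:129532386-129638495, plus strand), the elongase of palmitate, had low levels of 7.64, 9.27 and 9.20 CPM in control and reached 30.3, 42.3 and 26.9 CPM in AclyM-KO libraries. Relative to its mean, its AclyM-KO libraries were more spread than those of any other of the 10 enzymes (coefficient of variation 24.5%), with AclyM-KO replicate 2 at the top, the library with the highest cell division markers. Elovl6 rose 3.85-fold (log2 1.94, SE 0.17, edgeR adjusted p = 3.96e-05) and 3.28-fold without that library. An antisense gene, Gm35986, covers 34 of the 6431 annotated exon bases of Elovl6, and the strand setting of the counting is given only as the default of the tool.

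Scd1 and Scd2 encode stearoyl-CoA desaturases and lie 114.205 kb apart, start to start, on chromosome 19. Scd1 (NM_009127, chr19:44394450-44407709, minus strand) was at 38.8, 43.0 and 48.3 CPM in control and at 206.7, 247.0 and 225.3 CPM in AclyM-KO libraries. Every AclyM-KO library was more than 4-fold above every control library. Scd1 rose 5.22-fold (log2 2.38, SE 0.10, edgeR adjusted p = 6.40e-08). Scd2 (NM_009128, chr19:44293676-44306864, plus strand), the more abundant of the pair, was at 498.3, 548.6 and 544.8 CPM in control and at 1218, 1720 and 1344 CPM in AclyM-KO libraries. The groups did not overlap, and AclyM-KO replicate 2 was again the highest. Scd2 rose 2.69-fold (log2 1.43, SE 0.11, edgeR adjusted p = 1.34e-05). The transcripts share sequence, as 3.03% of the 50-base words of Scd1 also occur in Scd2 and 2.68% of those of Scd2 in Scd1. Reads within this shared sequence do not separate Scd1 from Scd2, and the authors' filter on mapping quality may have removed them.

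Among the polyunsaturated steps, Fads2 (NM_019699, chr19:10062765-10101503, minus strand), the desaturase of linoleic and alpha-linolenic acid, was at 11.5, 12.3 and 12.9 CPM in control and at 80.0, 89.3 and 91.5 CPM in AclyM-KO libraries. These values rest on 127 to 164 reads per control library and 919 to 2364 reads per AclyM-KO library. Fads2 rose 7.11-fold (log2 2.83, SE 0.09, edgeR adjusted p = 1.52e-08), which ranked 1 by p and 4 by log2 fold change among the 11470 genes tested. With any library left out, its log2 fold change stayed between 2.79 and 2.88.

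Fads1 (NM_146094, chr19:10182877-10196874, plus strand), the desaturase that acts after the elongation by Elovl5, was at 183.9, 174.7 and 180.8 CPM in control and at 225.5, 224.4 and 221.4 CPM in AclyM-KO libraries. The 3 AclyM-KO libraries were nearly equal (223.8 ± 2.09 CPM, SD, n = 3), and the change was small beside that of Fads2. Fads1 rose 1.24-fold (log2 0.32, SE 0.06, edgeR adjusted p = 0.0068), but without control replicate 2 the adjusted p was 0.0563 at a log2 fold change of 0.29. Elovl5 (NM_134255, chr9:77917365-77984519, plus strand), the elongase between the desaturations, was at 94.4, 100.2 and 99.2 CPM in control and at 113.9, 130.2 and 113.6 CPM in AclyM-KO libraries. The groups did not overlap, but this was the smallest change of the 10 enzymes. Elovl5 rose 1.22-fold (log2 0.29, SE 0.08, edgeR adjusted p = 0.0305), and leaving out control replicate 1, 2 or 3 gave adjusted p-values of 0.147, 0.0954 and 0.103.

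Fads3 (NM_021890, chr19:10040855-10060113, plus strand), a desaturase that acts on sphingoid bases, was at 6.91, 8.30 and 7.76 CPM in control and at 12.6, 12.3 and 11.4 CPM in AclyM-KO libraries. The groups did not overlap, and Fads3 rose 1.58-fold (log2 0.66, SE 0.13, edgeR adjusted p = 0.00819). Without control replicate 1 the adjusted p was 0.0554 at a log2 fold change of 0.59. Elovl1 (NM_001039176, chr4:118426874-118432953, plus strand), which elongates saturated and monounsaturated chains to the very long chains of sphingolipids, was at 132.8, 131.3 and 128.3 CPM in control and at 174.7, 160.0 and 201.7 CPM in AclyM-KO libraries. In contrast to Elovl6, AclyM-KO replicate 2 was the lowest of its group. Elovl1 rose 1.36-fold (log2 0.45, SE 0.08, edgeR adjusted p = 0.00571). Cdc20, a cell division gene on the opposite strand, covers 53 of the 2726 exon bases of Elovl1 and was itself at 13.9 to 21.0 CPM in control and 18.98 to 20.8 CPM in AclyM-KO (log2 0.29, edgeR adjusted p = 0.229).

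**Figure D2:**
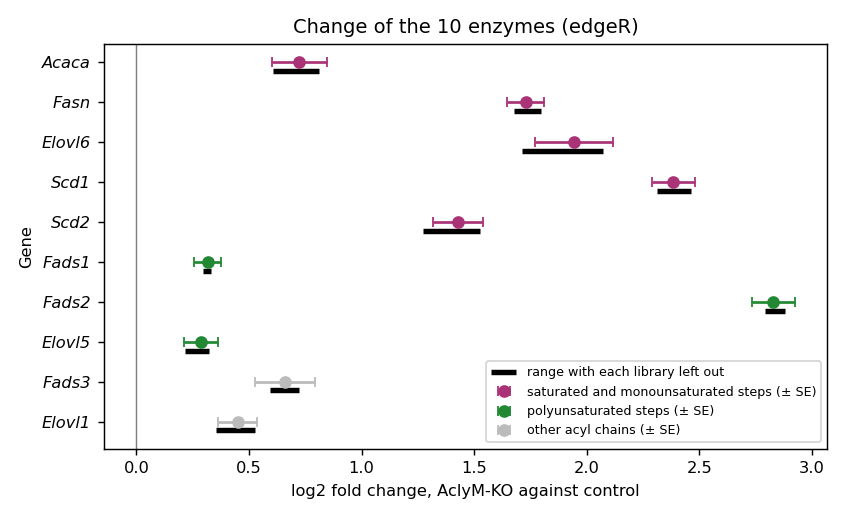
Log2 fold change of AclyM-KO against control (x axis) for the 10 enzymes (y axis), coloured by step, with the standard error as whiskers and the range over the 6 fits that each leave out 1 library as a black bar (n = 3 per group). Scd1 (2.38) and Fads2 (2.83) lie furthest to the right, and Fads1 (0.32) and Elovl5 (0.29) lie closest to 0.

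Ratios within a library do not depend on the scaling between libraries, and 6 pairs were compared as log2 ratios of counts. The ratio of Fads2 to Fads1 was -3.99, -3.83 and -3.80 in control and -1.49, -1.33 and -1.27 in AclyM-KO libraries, a difference of 2.51. The ratio of Fads2 to its other neighbour Fads3 was 0.68 on average in control and 2.84 in AclyM-KO, a difference of 2.16. Fads2 thus gained on both other desaturases of its cluster in each AclyM-KO library.

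The ratio of Scd1 to Scd2 was -3.68, -3.67 and -3.50 in control and -2.56, -2.80 and -2.58 in AclyM-KO, a difference of 0.97. Fasn against Acaca differed by 1.01 (2.53 in control and 3.54 in AclyM-KO on average). Elovl6 gained 1.62 on Elovl5 and 1.46 on Elovl1, and its ratio to Elovl1 was the most variable, with values of -2.53, -1.92 and -2.91 in AclyM-KO libraries. None of the 6 pairs overlapped between the groups. The two-sided exact permutation p was 0.1 for each pair, also after Benjamini-Hochberg adjustment over the 6 pairs, which is the smallest p that 3 libraries against 3 allow, so this test could not pass 0.05.

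**Figure D3:**
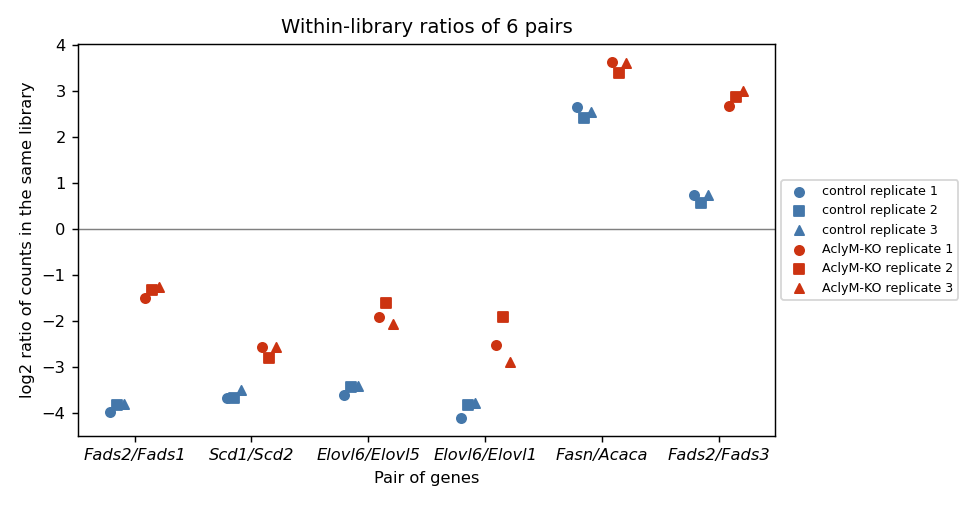
Log2 ratio of the counts of 2 genes in the same library (y axis) for 6 pairs (x axis), with the 3 control libraries in blue and the 3 AclyM-KO libraries in red. The red points lie above the blue points in all 6 pairs, by 2.51 on average for Fads2/Fads1 and by 0.97 for Scd1/Scd2.

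Levels were compared between genes per length, as RPKM, the CPM divided by the length of the matched transcript in kilobases. In control BMDMs the order was Elovl1 (115.0 ± 2.01 RPKM, SD, n = 3), Scd2 (97.3 ± 5.14), Fads1 (52.0 ± 1.35), Elovl5 (35.2 ± 1.12), Fasn (13.6 ± 1.19), Scd1 (8.98 ± 0.978), Fads2 (3.88 ± 0.215), Acaca (2.64 ± 0.325), Fads3 (2.08 ± 0.189) and Elovl6 (1.46 ± 0.155), and no neighbours in this order overlapped. In AclyM-KO BMDMs Scd2 came first (261.7 ± 47.9 RPKM), followed by Elovl1 (157.3 ± 18.6) and Fads1 (64.7 ± 0.604). Scd1 (46.8 ± 4.17), Fasn (45.1 ± 3.37) and Elovl5 (42.9 ± 3.42) followed, and each overlapped its neighbour, so their order could not be resolved. Fads2 was at 27.6 ± 1.94, and Elovl6 (5.57 ± 1.36) overlapped Acaca (4.34 ± 0.602), with Fads3 last (3.28 ± 0.167). The places of Elovl1, Acaca and, in AclyM-KO, Fads1 and Elovl5 depend on their lengths. Over all annotated exons (2726 instead of 1137 bases) Elovl1 was at 48.0 RPKM in control, below Scd2 (97.1), and at 65.6 RPKM in AclyM-KO. Over all annotated exons (17074 instead of 9026 bases) Acaca was at 1.395 RPKM in control, below Fads3 (2.02), and was the last in AclyM-KO at 2.29 RPKM, below Fads3 (3.19). By the same measure Fads1 (46.5 ± 0.435 RPKM, SD, n = 3) and Scd1 (46.3 ± 4.12) overlapped in AclyM-KO, whereas Elovl5 (33.9 ± 2.70) no longer overlapped Fasn (41.4 ± 3.10).

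The summed RPKM of the 10 enzymes was 325.0, 335.2 and 336.2 in control and 611.5, 709.3 and 656.9 in AclyM-KO libraries. Within the Fads family, Fads2 made up 6.25%, 6.87% and 7.01% of the summed RPKM in control and 27.0%, 29.4% and 30.2% in AclyM-KO libraries. Fads1 remained the most abundant of the family, at 66.6% to 69.3% in AclyM-KO. Over all annotated exons Fads2 made up 8.05% to 8.99% in control and 32.6% to 36.2% in AclyM-KO, so the shares in this family also depend on the lengths. Scd1 made up 8.09%, 8.14% and 9.09% of the summed RPKM of Scd1 and Scd2 in control and 16.1%, 13.9% and 15.9% in AclyM-KO, so Scd2 remained the main stearoyl-CoA desaturase transcript in both genotypes. Elovl6 was a minor elongase transcript throughout, at 0.845% to 1.03% of the summed RPKM of Elovl1, Elovl5 and Elovl6 in control and 2.03% to 3.65% in AclyM-KO. Over all annotated exons these shares were 1.55% to 1.87% and 3.78% to 6.44%.

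Other genes of the pathway were followed in 8 lists with 60 genes, of which 47 were tested, 13 rose and 2 fell, beside the 6.7% and 5.65% of all tested genes. Of the genes for precursor supply, Acss2, which makes acetyl-CoA from acetate, rose 3.01-fold (10.4, 6.95 and 7.85 CPM in control, 22.9, 27.7 and 24.5 CPM in AclyM-KO, edgeR adjusted p = 6.01e-05). Me1, malic enzyme, a source of NADPH, was low in both groups, and rose from 2.27, 2.77 and 2.17 CPM to 5.05, 7.86 and 5.85 CPM (log2 1.40, SE 0.23, edgeR adjusted p = 0.00252). Slc25a1, the mitochondrial citrate carrier, rose by 0.49 on the log2 scale (edgeR adjusted p = 0.00156), as did Mid1ip1 by 0.43 (0.00218), which encodes an activator of acetyl-CoA carboxylase. Acly fell by 1.25 on the log2 scale (SE 0.07, edgeR adjusted p = 5.58e-07). Idh1 was at a log2 fold change of 0.03, and Thrsp had no reads.

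The close relatives of the 10 enzymes were hardly expressed. Elovl7 was the single tested gene of these 8, at 3.82, 3.29 and 3.25 CPM in control and 4.96, 6.23 and 4.54 CPM in AclyM-KO (log2 0.63, edgeR adjusted p = 0.0557), and it passed the threshold with total-count scaling (0.0461) and without the filter on low counts (0.0459). Elovl2, an elongase of long polyunsaturated chains, had 0 reads in each control library and 3, 20 and 3 reads in AclyM-KO replicates 1, 2 and 3. Against a floor of 3 counts over the control group it was 6.22-fold higher, and 3.09-fold higher without AclyM-KO replicate 2, which held most of its reads. The floor bounds the control side alone, and these values leave out the count error of the few AclyM-KO reads. Without a filter on low counts the edgeR adjusted p of Elovl2 was 0.00713. Elovl3 had 0 reads in control and 0, 2 and 2 in AclyM-KO, and Elovl4 had 1 read in control and 6 in AclyM-KO replicate 2. Scd3 and Scd4 had at most 6 and 14 reads in a library, Acacb at most 10 and Fads6 at most 15, and none of these 4 passed the filter.

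Of the 6 genes for the steps that all elongases share, Hsd17b12, the ketoacyl-CoA reductase, rose by 0.60 on the log2 scale (edgeR adjusted p = 0.00234), with 123.7 to 130.7 CPM in control and 169.8 to 224.8 CPM in AclyM-KO. Tecr, the enoyl-CoA reductase, rose by 0.38 (edgeR adjusted p = 0.0278), a call that was lost without control replicate 1, 2 or 3 (0.1004, 0.0711 and 0.137) and without AclyM-KO replicate 1 or 3 (0.0755 and 0.0946). The cytochrome b5 and cytochrome b5 reductase families include the electron donors of the desaturases. Among 5 tested genes of these families, Cyb5b, a cytochrome b5, rose by 0.55 (edgeR adjusted p = 0.000634). Cyb5a, another cytochrome b5, was at a log2 fold change of 0.09 (edgeR adjusted p = 0.421). Which of them serves the desaturases in these cells was not tested. Cyb5r3, a cytochrome b5 reductase, rose by 0.21 with an edgeR adjusted p of 0.0495, which was above the threshold in 9 of its 14 other fits. Among 4 acyl-CoA synthetases, Acsl3, which activates long-chain fatty acids at the endoplasmic reticulum and lipid droplets, rose 2.08-fold (edgeR adjusted p = 0.000206). Acsl5 rose by 0.34 (edgeR adjusted p = 0.0176), but without control replicate 1, 2 or 3 the adjusted p was 0.0878, 0.0857 and 0.0603.

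Mitochondrial fatty-acid synthesis, a separate pathway that supplies lipoic acid, had 7 tested genes, of which none was called (edgeR, median log2 fold change -0.11), beside 12.3% of all tested genes called in either direction. DESeq2 and limma-voom also called 0 of them, and 1 (Oxsm, lower) had an unadjusted edgeR p under 0.05. Of 6 tested genes of lysophospholipid acyltransferases (Lpcat and Mboat families), which place acyl chains on phospholipids and differ in the chains they prefer, Lpcat3 rose by 0.30 (edgeR adjusted p = 0.0237) and Lpcat2 fell by 0.58 (edgeR adjusted p = 0.0109). Without control replicate 1 the adjusted p of Lpcat2 was 0.0629. That of Lpcat3 was 0.111, 0.0639 and 0.126 without control replicate 1, 2 or 3, and 0.0776 without AclyM-KO replicate 3. Of 12 tested regulators, Insig1, which retains the SREBP complex in the endoplasmic reticulum and is itself an SREBP target, rose 2.80-fold (121.2, 127.7 and 117.0 CPM in control, 297.6, 398.2 and 326.0 CPM in AclyM-KO, edgeR adjusted p = 4.29e-06). Srebf2, which encodes SREBP2, rose by 0.51 (edgeR adjusted p = 0.00145). Srebf1, which encodes SREBP1, was at 81.3, 80.5 and 81.3 CPM in control and 102.4, 86.7 and 98.6 CPM in AclyM-KO and did not pass the threshold (log2 0.24, edgeR adjusted p = 0.0662), but did so without AclyM-KO replicate 2 (0.000889) and with total-count scaling (0.0364).

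**Figure D4:**
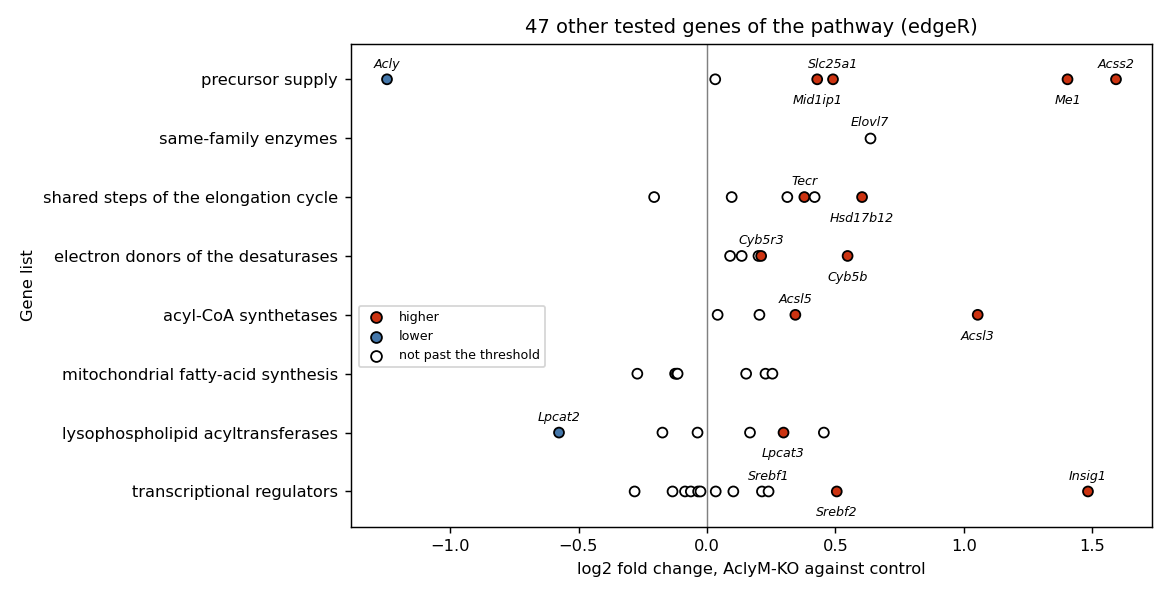
Log2 fold change of AclyM-KO against control (x axis) for the 47 tested genes of 8 pathway lists (y axis), 1 point per gene, filled red where it rose and blue where it fell with an edgeR adjusted p of 0.05 or less (n = 3 per group). Acss2 (1.59), Insig1 (1.48) and Me1 (1.40) lie furthest to the right and Acly (-1.25) furthest to the left, and no gene of mitochondrial fatty-acid synthesis is filled.

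Fads1, Fads2 and Fads3 are neighbours on chromosome 19, and the starts of Fads1 and Fads3 lie 81.142 and 60.177 kb from that of Fads2. Of the 6 tested neighbours on the list for this locus 0 rose (edgeR, DESeq2 and limma-voom), beside 6.7% of all tested genes, and 2 (Fth1 and Fen1) had higher values at an unadjusted edgeR p under 0.05. Rab3il1, Fth1, Fen1, Tmem258 and Dagla were at log2 fold changes of 0.03, 0.18, 0.25, -0.18 and 0.00, none past the threshold. Best1, which encodes a chloride channel, fell from 3.18, 3.36 and 2.89 CPM to 1.65, 1.55 and 1.48 CPM (log2 -1.01, SE 0.23, edgeR adjusted p = 0.0143). Incenp, a chromosomal passenger gene 202.195 kb from Fads2 that was not on the list, rose by 0.29 (edgeR adjusted p = 0.0189). Around the Scd genes, Ndufb8, Hif1an, Bloc1s2 and Cwf19l1 were at 0.12, -0.01, 0.29 and 0.18, and 0 of these 4 passed the threshold with edgeR, DESeq2 or limma-voom or had an unadjusted edgeR p under 0.05.

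**Figure D5:**
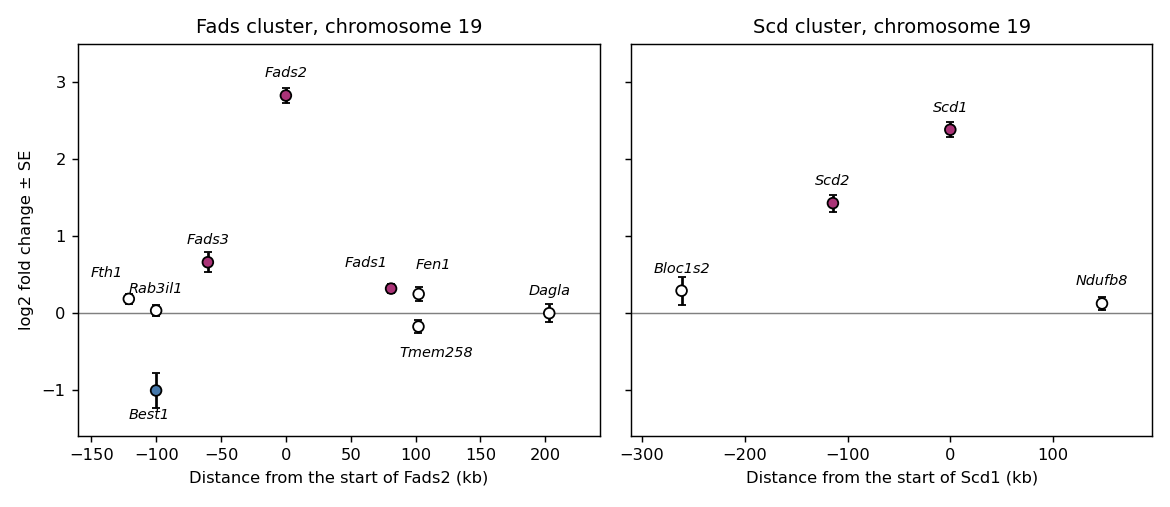
Log2 fold change of AclyM-KO against control with its standard error (y axis) against the distance of the gene's start from that of Fads2 (left) or Scd1 (right) in kb (x axis), for tested genes of the 2 loci that are among the 10 enzymes or the listed neighbours. The listed neighbours Hif1an and Cwf19l1 lie outside the plotted stretch and are not shown. Points are filled where the edgeR adjusted p was 0.05 or less (purple higher, blue lower): Fads2 (2.83) stands above Fads3 (0.66) and Fads1 (0.32), Scd1 (2.38) above Scd2 (1.43), and Best1 (-1.01) is the one listed neighbour that changed.

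The genes whose log2 CPM followed Fads2 most closely over the 6 libraries, among 8318 genes with a mean of at least 10 CPM, included Mir5114 (Pearson r = 0.9987) and Aacs (0.9979). The annotated bases of Mir5114 lie in an exon of Scd2 on the same strand, so its reads cannot be told apart from those of Scd2. Aacs encodes acetoacetyl-CoA synthetase and had a log2 fold change of 1.46. The genes most like Fads1 were Btd (0.9964), which encodes biotinidase, Dhcr7 (0.9959), a reductase of cholesterol synthesis, and Map2k3 (0.9914), a kinase of the p38 pathway. These correlations are a description over 6 libraries that fall into 2 groups, and 264 genes had an r above 0.95 with Fads2 and 193 with Fads1.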

How the data were processed

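The authors sequenced strand-specific libraries of DNase-treated total RNA (KAPA mRNA HyperPrep, Illumina HiSeq), used STAR 2.5.2b for alignment to mm10 and SAMtools for a filter on mapping quality, and obtained raw tags for each RefSeq transcript with HOMER2. The authors deposited these counts without normalization or pooling. CASAVA 1.8.2 is named in the submitters' processing notes. The counting used the default settings of the tool, and its strand setting and counted region are given only in that form. The RefSeq release is not given in the sources used here. The table has 35745 transcripts. Of its columns of counts, 6 belong to the 6 libraries described here, and 6 further columns of values that could not be tied to the labelled samples were not used here.

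Symbols came from a RefSeq gene table (35440 transcripts) and GENCODE M21 (188), and 117 transcripts kept their accession. Positions are spans of RefSeq genes (GRCm38.p6, mm10), and transcript lengths, exons and distances between gene starts are from GENCODE M21. For each gene, the transcript with the highest total was tested by the quasi-likelihood method of edgeR 4.0.16 (R 4.3.3) after filterByExpr and TMM, with genotype alone in the model, and p-values were adjusted by Benjamini-Hochberg over 11470 genes. Standard errors of log2 fold changes were taken from the F statistic. CPM and RPKM were computed here from TMM-scaled library sizes, and 0.5 was added to each count in ratios. The self-test on simulated data for this comparison recovered 193 of 200 changed genes, with 5 false calls among 198 (11455 genes). It gave all genes the same dispersion and used a single size of change, larger than those of Acaca, Fads1, Elovl5, Fads3 and Elovl1. It therefore does not measure the recovery of changes as small as theirs. DESeq2 1.42.0, limma-voom (limma 3.58.1), 2 other scalings, 2 other filters, summed transcripts, a replicate block, a threshold of 0.01 and each library left out were alternatives.

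The 10 enzymes and all lists were chosen with earlier results of these data known. Named were the 10 enzymes, Acly, all same-family enzymes, the called genes of each other pathway list (not the marker lists) with the largest absolute log2 fold change (up to 3 per direction) with Srebf1 and Srebf2, all tested neighbours of the Fads and Scd loci, and the 3 genes most like Fads2 and Fads1. Beyond this rule Cdc20, Incenp, Csf1r, Mertk, Adgre1, Cd68, Itgam, Fcgr1, Cyb5a, Mid1ip1, Idh1, Oxsm and Thrsp were named after their values were seen. A gene that the rule names is not reported here.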

Additional observations from a re-analysis of the deposited data

How the results depend on the processing

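All 10 enzymes kept their direction in every alternative, and all 10 stayed past the threshold with DESeq2, limma-voom, either other scaling, either other filter, summed transcripts and the replicate block, and 9 at a threshold of 0.01. Without a library, 8 to 10 were called. The log2 fold change of Fads1 then ranged from 0.29 to 0.33 (not called without control replicate 2), that of Elovl5 from 0.22 to 0.32 (not called without any control replicate) and that of Fads3 from 0.59 to 0.72 (not called without control replicate 1). Over the whole table, 1416 genes were called (768 higher), 557 (343 higher) at a threshold of 0.01 and 598 to 2136 (363 to 1105 higher) with a library left out: 598, 658 and 628 without control replicate 1, 2 and 3, and 2136 without AclyM-KO replicate 2. The cause was not tested. Of the listed pathway genes, 15 were called, and 10 to 17 over the alternatives. No result changed direction past the threshold. RPKM levels over all annotated exons, an alternative chosen after seeing the data, moved Elovl1 from 115.0 to 48.0 in control and from 157.3 to 65.6 in AclyM-KO, and Acaca from 2.64 to 1.395 and from 4.34 to 2.29. Fads1 and Elovl5 (52.0 to 37.4 and 35.2 to 27.8 in control, 64.7 to 46.5 and 42.9 to 33.9 in AclyM-KO) and Fasn in AclyM-KO (45.1 to 41.4) moved by more than their spread.

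The replicate numbers 1, 2 and 3 in the labels did not pair the libraries: the deviations from the group means correlated at 0.090, 0.114 and -0.047 for same-numbered libraries. With the replicate block, 1583 genes and all 10 enzymes were called. Low genes such as Elovl2, Elovl3 and Elovl4 rest on few reads, and errors cover the spread of 3 libraries per group.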
